A study of Rattus norvegicus with 6 samples.

Results

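The interleukin 1 family was followed in mammary tumors through 10 genes of its cytokines, antagonists and receptors: Il33, Il1rl1, Il1a, Il1b, Il1rn, Il1r1, Il1r2, Il1rap, Il18 and Il18bp. All 10 were found by symbol among the 30562 rows of the read count table, and 8 of them passed a filter on low counts that left 13139 genes to be tested. The family was chosen by the level of Il33, which had stood out between the age groups in these same tumors, so the difference of the members between older and younger tumors is given as a description, and no test of it is read as support.

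Bulk RNA-seq covered 6 tumors of female F344 rats, an inbred strain used in aging research, with 1 library per tumor. Every rat carried a 50 mg subcutaneous pellet of MPA (medroxyprogesterone acetate, a progestin) that released over 90 days, and received DMBA, a polycyclic carcinogen, once by gavage at 65 mg per kg. The 3 older tumors (102, 107 and 116) came from rats treated at 21 to 23 months of age and the 3 younger tumors (157, 158 and 167) from rats treated at 4 months. Per the paper, the younger rats were virgin animals bought from Envigo and the older rats came from National Institute on Aging colonies. Source and age group therefore cannot be told apart. All 6 samples are carcinogen-induced tumors, so no untreated mammary gland enters any comparison, and age is that of the whole animal.

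Named genes held between 3394451 and 6383983 counts per tumor, and 3 counts, taken as the floor, corresponded to between 0.53 and 1.03 CPM (counts scaled to library size with TMM factors). Markers of luminal epithelium, Epcam, Cdh1, Krt8, Krt18 and Elf5, summed to between 1418 and 2037 CPM, so that epithelial transcripts were present in all 6 tumors. Tumor 102 stood apart from the rest, with a mean correlation of 0.829 with the other tumors across genes against 0.867 to 0.898 for those 5, and values that move most without it are also given so.

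Cytokines of the interleukin 1 family are made without classical secretion signals for the most part and act as alarm signals when cells are damaged or infected. IL-33 is kept in the nucleus of endothelial, epithelial and stromal cells and, once released, binds ST2 (encoded by Il1rl1) together with the shared receptor subunit encoded by Il1rap on mast cells, innate lymphoid cells and regulatory T cells. IL-1 alpha and IL-1 beta use the receptor of Il1r1 with the same shared subunit, are blocked by the antagonist of Il1rn and are captured by the decoy receptor of Il1r2. IL-18 is stored as a precursor, is cut by caspase 1 and is neutralized by the binding protein of Il18bp.

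Promoter windows are printed for Il33 and Il18, the tested members with the largest positive and the largest negative fold change. The sequences are those of RefSeq on build GRCr8, each from 250 bases before to 50 after an annotated start, and 9 of the 10 members had such a window. Il33 had 2 windows, 19373 bases apart (chr1:237115323-237115622 and chr1:237134696-237134995, both on the plus strand), and the counts, made per gene on mRatBN7.2, do not show which start was used. The Il18 window lies at chr8:59801822-59802121 on the plus strand. Capitals mark matches, on either strand, to TATAAA, to TGANTCA or to TTCNNNGAA, and strings for NF-kB and for interferon regulatory factors were searched as well.
Il33, first window: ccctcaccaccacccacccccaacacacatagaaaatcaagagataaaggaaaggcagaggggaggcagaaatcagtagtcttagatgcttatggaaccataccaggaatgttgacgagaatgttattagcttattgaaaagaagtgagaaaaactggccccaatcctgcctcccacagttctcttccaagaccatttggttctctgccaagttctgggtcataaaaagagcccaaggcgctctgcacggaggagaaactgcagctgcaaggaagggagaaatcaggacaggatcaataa
Il33, second window: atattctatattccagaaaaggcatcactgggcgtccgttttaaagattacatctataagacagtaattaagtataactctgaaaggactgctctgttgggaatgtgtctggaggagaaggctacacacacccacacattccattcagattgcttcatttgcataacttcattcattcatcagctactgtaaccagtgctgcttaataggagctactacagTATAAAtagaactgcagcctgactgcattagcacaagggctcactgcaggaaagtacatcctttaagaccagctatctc
Il18 window: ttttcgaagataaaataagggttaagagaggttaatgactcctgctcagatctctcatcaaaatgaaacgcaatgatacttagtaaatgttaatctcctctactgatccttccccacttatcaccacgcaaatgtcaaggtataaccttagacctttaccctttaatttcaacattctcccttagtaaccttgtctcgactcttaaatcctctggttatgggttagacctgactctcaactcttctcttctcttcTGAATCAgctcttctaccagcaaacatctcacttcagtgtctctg
The first window of Il33 held no match to any of these strings. The second held TATAAA, the usual spelling of the TATA box, at bases 222 to 227, which 14.2% of 33469 rat promoter windows of the same length also hold. The Il18 window held TGANTCA, the spelling of an AP-1 site, at bases 256 to 262, found in 7.33% of all windows.

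Il33 was the member with the widest separation between the age groups. Its level was 503 CPM in tumor 102, 568 CPM in tumor 107 and 516 CPM in tumor 116, and 44.6, 77.6 and 132 CPM in younger tumors 157, 158 and 167. Every older tumor lay above every younger one. The means were 529 ± 34.1 CPM (SD, n = 3) in older and 84.7 ± 44.2 CPM (SD, n = 3) in younger tumors, a fold of 6.25 and a log2 fold change of 2.64 (standard error, SE, 0.41). These are the values that drew attention to the family, and they support nothing further here. By size of the log2 fold change Il33 was in place 180 among the 13139 genes tested. With each tumor left out in turn the log2 fold change of Il33 ran from 2.33 (without younger tumor 157) to 3.11 (without younger tumor 167), and without tumor 102 it was 2.67. In bulk tissue, more cells that make a transcript cannot be told apart from more transcript per cell.

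**Figure D1:**
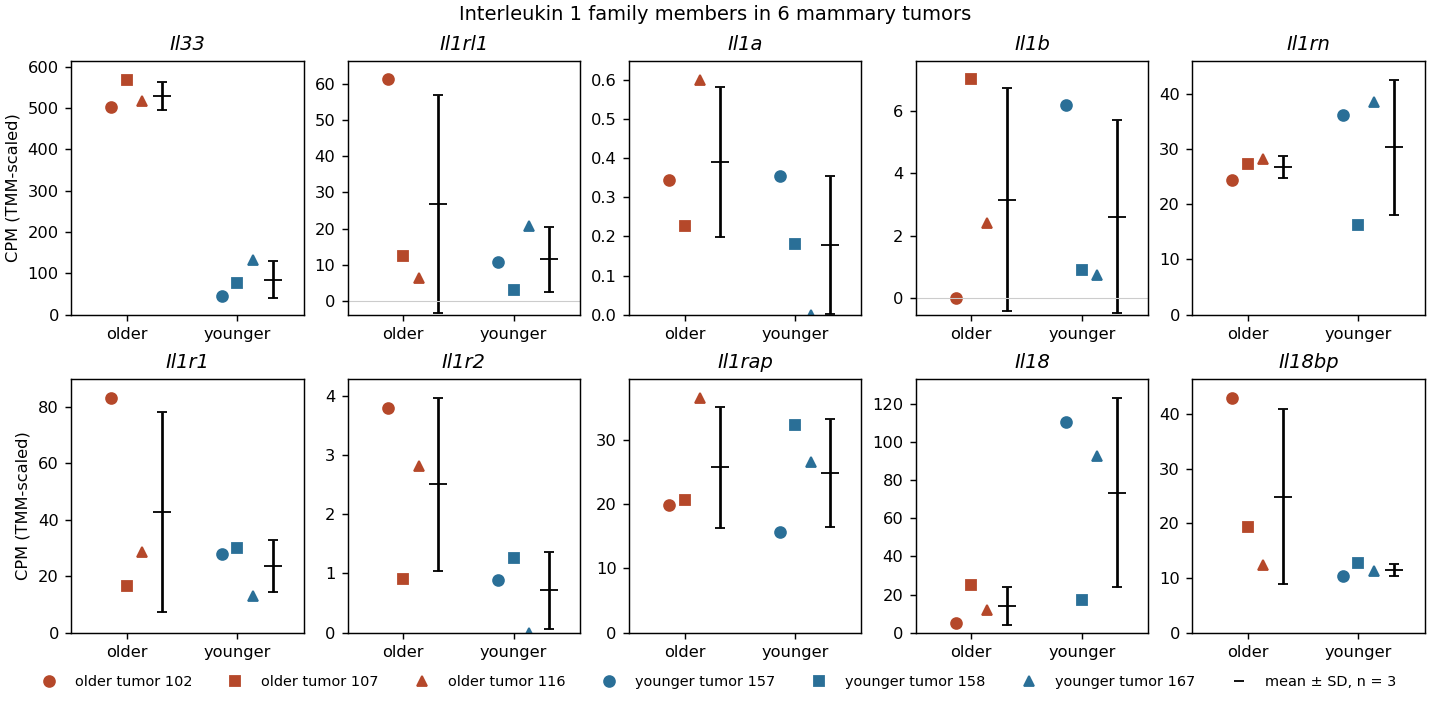
CPM (TMM-scaled counts) of each of the 10 members in each tumor, older tumors in red and younger in blue, 1 symbol per tumor, with the mean ± SD of 3 tumors as a black bar. Each panel has its own vertical axis, and Il33 is the tested member whose groups do not overlap, at 503 to 568 CPM in older and 44.6 to 132 CPM in younger tumors.

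The span within a group, the highest tumor over the lowest, is given as a description, since the choice of Il33 rests on the same 6 values. For Il33 it was 1.13-fold in older and 2.96-fold in younger tumors, against medians of 1.77-fold and 1.65-fold over all genes tested. The members differed in which group was the wider. Il1rn spanned 1.16-fold in older and 2.37-fold in younger tumors, and Il18 4.80-fold and 6.52-fold. The other way, Il18bp spanned 3.47-fold in older and 1.21-fold in younger tumors, Il1r1 5.02-fold and 2.28-fold, and Il1rl1 9.56-fold and 6.74-fold.

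The receptor side of the IL-33 system did not separate the groups. Il1rl1, which encodes membrane-bound and soluble ST2 from the same gene, was at 61.3, 12.5 and 6.41 CPM in older tumors 102, 107 and 116 and at 10.8, 3.08 and 20.7 CPM in younger tumors 157, 158 and 167. Tumor 102 was the highest and the other older tumors lay within the younger range. The log2 fold change was 1.21 (SE 0.93) and became -0.28 without tumor 102. A count per gene does not tell the soluble form from the receptor. Il1rap, the subunit that ST2 and the IL-1 receptor share, was at 20.0, 20.7 and 36.6 CPM in older and at 15.7, 32.4 and 26.7 CPM in younger tumors. The groups of Il1rap overlapped, with a log2 fold change of 0.05 (SE 0.38) that changed sign, to -0.30 without tumor 116 and -0.20 without tumor 157.

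Il1a and Il1b, the founding agonists of the family, were scarce. Il1a had 1, 1 and 3 counts in tumors 102, 107 and 116 and 2, 1 and 0 counts in tumors 157, 158 and 167, at or under the floor in all 6 tumors, and was not tested. Il1b was at 0 counts in tumor 102, where 3 counts would be 1.03 CPM, at 7.05 CPM in tumor 107 and at 2.40 CPM in tumor 116. In younger tumors Il1b was at 6.19 CPM (157), 0.905 CPM (158) and 0.741 CPM (167). Each group thus held 1 tumor well above its others, and the groups overlapped. The log2 fold change of Il1b, 0.28 with a SE of 1.18, was -0.97 without tumor 107 and 1.92 without tumor 157, so that no direction could be read from it.

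The antagonist was better measured than the agonists, and the decoy receptor was not. Il1rn, the receptor antagonist, was at 24.4, 27.3 and 28.2 CPM in older and at 36.1, 16.3 and 38.5 CPM in younger tumors. Its older tumors lay inside the younger range, with a log2 fold change of -0.18 (SE 0.36). Without tumor 167 this was 0.02. Il1r2, the decoy receptor, had 11, 4 and 14 counts in older tumors and 5, 7 and 0 counts in younger ones, too few to be tested. Il1r1, the signalling receptor, was at 83.3 CPM in tumor 102, 16.6 CPM in tumor 107 and 28.4 CPM in tumor 116. In younger tumors Il1r1 was at 27.9, 29.9 and 13.1 CPM, so that only tumor 102 lay outside their range. The log2 fold change of 0.84 (SE 0.61) became -0.08 without that tumor.

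Il18 and its binding protein lay in opposite directions. Il18 was at 5.16, 24.8 and 12 CPM in older tumors 102, 107 and 116 and at 111, 17 and 93.1 CPM in younger tumors 157, 158 and 167. Tumors 157 and 167 were far above the rest, and younger tumor 158 lay between older tumors 116 and 107. The means were 14 ± 9.95 CPM (SD, n = 3) in older and 73.6 ± 49.8 CPM (SD, n = 3) in younger tumors, a log2 fold change of -2.38 (SE 0.77) or 5.20-fold more in the younger. Across the fits without one tumor it ranged from -3.06 to -1.96. Il18bp was at 43.0, 19.3 and 12.4 CPM in older and at 10.4, 12.7 and 11.4 CPM in younger tumors. The younger tumors of Il18bp lay close together while tumor 102 was high, and the log2 fold change of 1.11 (SE 0.47) was 0.46 without tumor 102.

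In the test across all genes, 0% of the 13139 genes passed an adjusted p of 0.05 (edgeR's quasi-likelihood test, with 8.59% at an unadjusted p under 0.05), and 0 of the 8 tested members did. The adjusted p of the 7 tested members other than Il33 lay between 0.412 (Il18) and 0.986 (Il1rap). DESeq2 passed 326 genes (2.48% of those tested and 2.49% of those it gave an adjusted p), 2 of the members among them (Il33 and Il18), and nothing is read from that count, which uses the contrast of the choice. The groups did not overlap for 1 of 8 members, against 12.1% of all genes (6.51% with older tumors above and 5.58% below), and this too is the contrast by which Il33 was noticed. The members' median log2 fold change was 0.56, and 0.28 without Il33, against -0.0039 over all genes tested.

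**Figure D2:**
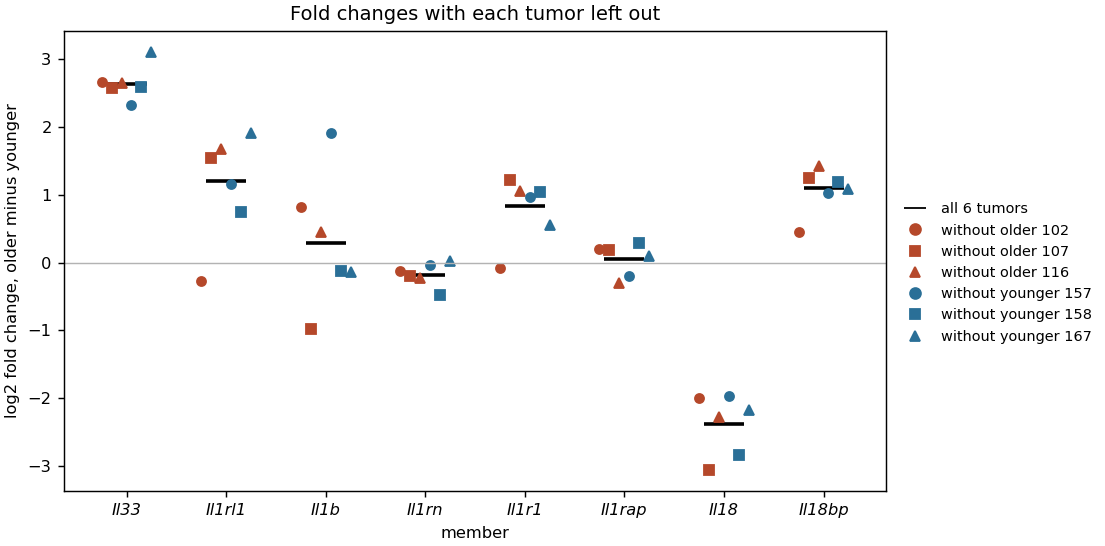
Log2 fold change (older minus younger) of the 8 tested members with all 6 tumors (black bar) and with each tumor left out (red for an older, blue for a younger tumor). Il33 stays between 2.33 and 3.11 and Il18 between -3.06 and -1.96, while Il1rl1 and Il1r1 cross 0 without tumor 102.

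Ratios between members within a tumor do not depend on library size, and the length of each gene cancels when a ratio is compared between tumors. The pairs were set with the levels known and are given without a test. The log2 ratio of Il33 to Il1rl1 was 3.03, 5.46 and 6.24 in older and 2.00, 4.47 and 2.65 in younger tumors, with overlap at tumor 102, and the mean difference of 1.87 was 2.80 without that tumor. The log2 ratio of Il33 to Il1rap was 4.63, 4.75 and 3.80 in older and 1.48, 1.25 and 2.29 in younger tumors, without overlap. The log2 ratio of Il18 to Il18bp was -2.96, 0.35 and -0.05 in older and 3.36, 0.41 and 2.99 in younger tumors. Tumor 107 of the older and tumor 158 of the younger group were almost level there, so that the groups were separate by little, and the mean difference of -3.14 was -2.10 without tumor 102. The log2 ratio of Il33 to Il18 was 6.49, 4.49 and 5.37 in older and -1.31, 2.16 and 0.50 in younger tumors, a mean difference of 5.0, and it ranged from 4.12 to 5.85 over the alternatives run. The log2 ratio of Il1rn to Il1r1 overlapped, at -1.75 to 0.70 in older and -0.86 to 1.53 in younger tumors, and its mean difference of -0.70 was 0.0022 without tumor 102.

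**Figure D3:**
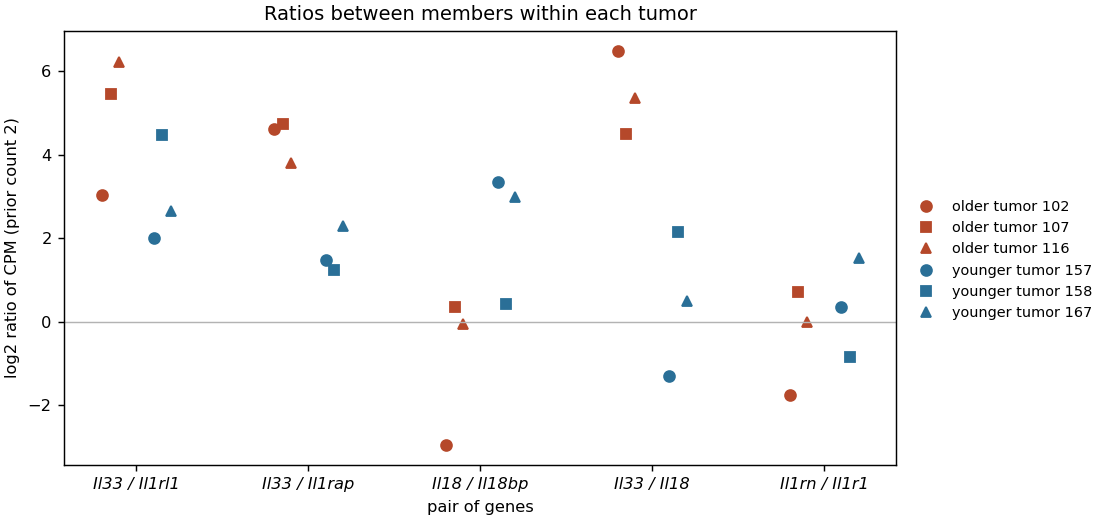
Log2 ratio of CPM (prior count of 2) between pairs of members in each tumor, older tumors in red and younger in blue. The groups are apart for Il33 to Il1rap, for Il33 to Il18 and, narrowly, for Il18 to Il18bp, and overlap for Il33 to Il1rl1 and Il1rn to Il1r1.

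The rest of the family was taken from a list of 11 other ligands and receptors, of which 3 were tested and 0 passed the threshold. Il36rn, which encodes the antagonist of the IL-36 receptor, was at 6.20, 9.32 and 11.2 CPM in older and at 0.884, 0.543 and 1.73 CPM in younger tumors. Every older tumor lay above every younger one. The younger tumors held 5, 3 and 7 counts, at or near the floor, and Il36rn met the filter on low counts through the older tumors. Its log2 fold change was 3.10 (SE 0.56, adjusted p = 0.235 with edgeR), with 2.78 and 3.59 as the extremes when single tumors were dropped. The IL-36 agonists themselves, Il36a, Il36b and Il36g, had at most 5 counts in any tumor. Il1rl2, the IL-36 receptor, was not tested and had 1, 3 and 3 counts in older tumors and 43, 40 and 3 counts in younger tumors 157, 158 and 167. Its signal thus came from tumors 157 and 158.

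For the IL-18 receptor, Il18r1, the ligand-binding subunit, was at 9.64, 9.32 and 10.2 CPM in older and 6.54, 5.43 and 4.94 CPM in younger tumors (log2 fold change 0.78, SE 0.35, adjusted p = 0.611 with edgeR). Il18rap, the accessory subunit found on T and natural killer cells, was not tested and had 51, 103 and 7 counts in older and 6, 4 and 3 counts in younger tumors. Tumors 102 and 107 held nearly all of it. Il1rapl1, an accessory-like protein known from neurons, was at 4.48, 2.73 and 6.21 CPM in older and 10.6, 9.59 and 19.7 CPM in younger tumors (log2 fold change -1.56, SE 0.49, adjusted p = 0.388 with edgeR). Sigirr, an inhibitory receptor, is listed at 0 counts in all 6 tumors.

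Behind these receptors stand adaptors and kinases that lead to NF-kB. All 15 listed relay genes were tested, 0 passed the threshold, and their median log2 fold change of 0.06 was close to that of all genes. The kinases with the smallest p were Irak2 (log2 fold change 1.06, SE 0.43, adjusted p = 0.547 with edgeR), Ikbkb (0.53, SE 0.31, adjusted p = 0.746) and Irak3, which restrains the pathway (1.46, SE 0.85, adjusted p = 0.746). Irak3 was at 45.1 CPM in tumor 102 and at 3.80 to 9.55 CPM in the other 5 tumors, and its log2 fold change was -0.17 without tumor 102.

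The tested genes that sense danger and process the cytokines were higher on average in older tumors, without passing the test. Of the 14 listed, 11 were tested, 0 passed, and all 11 had a positive log2 fold change with a median of 0.70, where 49.6% of all genes tested were positive. Mefv, Nlrp3 and Aim2 met the filter on low counts through the older tumors and not through the younger, which favours a positive sign. Prtn3, which the filter left out, was at 1.38, 0.227 and 0.601 CPM in older and 3.01, 1.63 and 0.247 CPM in younger tumors. Elane and Ctsg, also left out, had at most 1 count. Nothing is read from the 11 positive signs. Mefv, which encodes pyrin, was at 4.82, 3.86 and 3.60 CPM in older and 0.530, 0.181 and 0.741 CPM in younger tumors, the latter near the floor (log2 fold change 3.05, SE 0.62, adjusted p = 0.265 with edgeR). Nlrp3, the sensor of the best studied inflammasome, was at 7.23, 13.0 and 8.21 CPM in older and 3.89, 1.63 and 1.48 CPM in younger tumors (2.00, SE 0.53, adjusted p = 0.342). Nlrc4 did not overlap between the groups either (1.32, SE 0.41, adjusted p = 0.391). In all, 4 of the 11 tested genes did not overlap, each with older tumors above, against 12.1% of all genes tested (6.51% with older tumors above). Mefv, Nlrp3 and Aim2 are among the 4, so the filter favoured this count and nothing is read from it. Casp1, the protease that cuts IL-1 beta and IL-18, was at 26.9, 43.2 and 49.3 CPM in older and 16.3, 27.0 and 23.2 CPM in younger tumors, with tumor 102 just below tumor 158. Macrophage markers lay the same way: 9 of 9 had a positive log2 fold change, with a median of 1.22, and their sum was 253 to 477 CPM in older and 120 to 189 CPM in younger tumors. Their part in the values of the sensors was not tested.

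Of 16 listed genes that IL-1 and NF-kB induce, 14 were found by symbol (not Ptges and Saa3), 9 were tested and 0 passed. Among the 9, 7 had a positive and 2 a negative log2 fold change, with a median of 0.35. Tnfaip3 and Nfkbia, feedback inhibitors of NF-kB, and Vcam1, an adhesion molecule of activated endothelium, did not overlap between the groups. These were 3 of the 9 tested, each with older tumors above, where 12.1% of all genes tested did not overlap (6.51% with older tumors above). Vcam1 had 5 counts in younger tumor 167 and met the filter on low counts with the help of the older tumors. Nothing is read from this count. Icam1, Nfkbiz and Zc3h12a overlapped, Icam1 at 74.0, 32.3 and 40.65 CPM in older and 72.1, 18.3 and 24.2 CPM in younger tumors. Vcam1 was at 82.3, 12 and 29.8 CPM in older and 5.13, 3.44 and 1.23 CPM in younger tumors (log2 fold change 3.62, SE 0.80, adjusted p = 0.271 with edgeR), and its log2 fold change was 2.65 without tumor 102. Tnfaip3 was at 170, 42.0 and 145 CPM in older and 35.5, 25.5 and 18.0 CPM in younger tumors (2.17, SE 0.53, adjusted p = 0.315). Nfkbia was at 520 CPM in tumor 102, and its difference of 2.07 on the log2 scale (SE 0.66, adjusted p = 0.405) was 0.96 without it. Among secreted targets, Il6 was at most 1.38 CPM and was not tested. The chemokine genes Cxcl1 and Cxcl2 and the matrix protease gene Mmp3 overlapped between the groups, Mmp3 at 4.13, 25.9 and 57.3 CPM in older and 36.8, 13.6 and 20.5 CPM in younger tumors.

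Type 2 genes known to lie downstream of IL-33 in lymphoid cells and macrophages had no common direction. Of 16 listed genes, 8 were tested, 0 passed, 3 had a positive and 5 a negative log2 fold change, and the median log2 fold change was -0.14. Bulk counts do not tell which cells expressed these genes, among them Gata3 at 150 to 431 CPM. Il4, Il9 and Retnla had 0 counts in every tumor, which allows up to 0.53 to 1.03 CPM, and Il5, Il13 and Ccl17 were under the floor. Ccl22 and Ccl24, also untested, were higher in CPM in every older tumor. Ccl22 had 7, 43 and 7 counts in older and 2, 1 and 5 counts in younger tumors. Ccl24 was near the floor, with 1, 6 and 3 counts in older and 1, 0 and 0 counts in younger tumors. Ikzf2, which encodes the transcription factor Helios of regulatory T cells, had the smallest p of the list and lay the other way, at 4.48, 5.23 and 11.4 CPM in older and 17.1, 27.0 and 27.6 CPM in younger tumors (log2 fold change -1.74, SE 0.45, adjusted p = 0.326 with edgeR). Foxp3, the defining factor of those cells, was at 4.55 to 7.23 CPM in older and 6.17 to 7.42 CPM in younger tumors. Arg1, an enzyme of alternatively activated macrophages, overlapped between the groups and was at 219 CPM in tumor 107. Its value of 1.34 on the log2 scale (SE 1.02, adjusted p = 0.829 with edgeR) was -0.56 without that tumor, and that of Il17rb, a receptor of type 2 lymphoid cells, was 0.63 (SE 0.50, adjusted p = 0.846) and -0.02 without tumor 102.

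**Figure D4:**
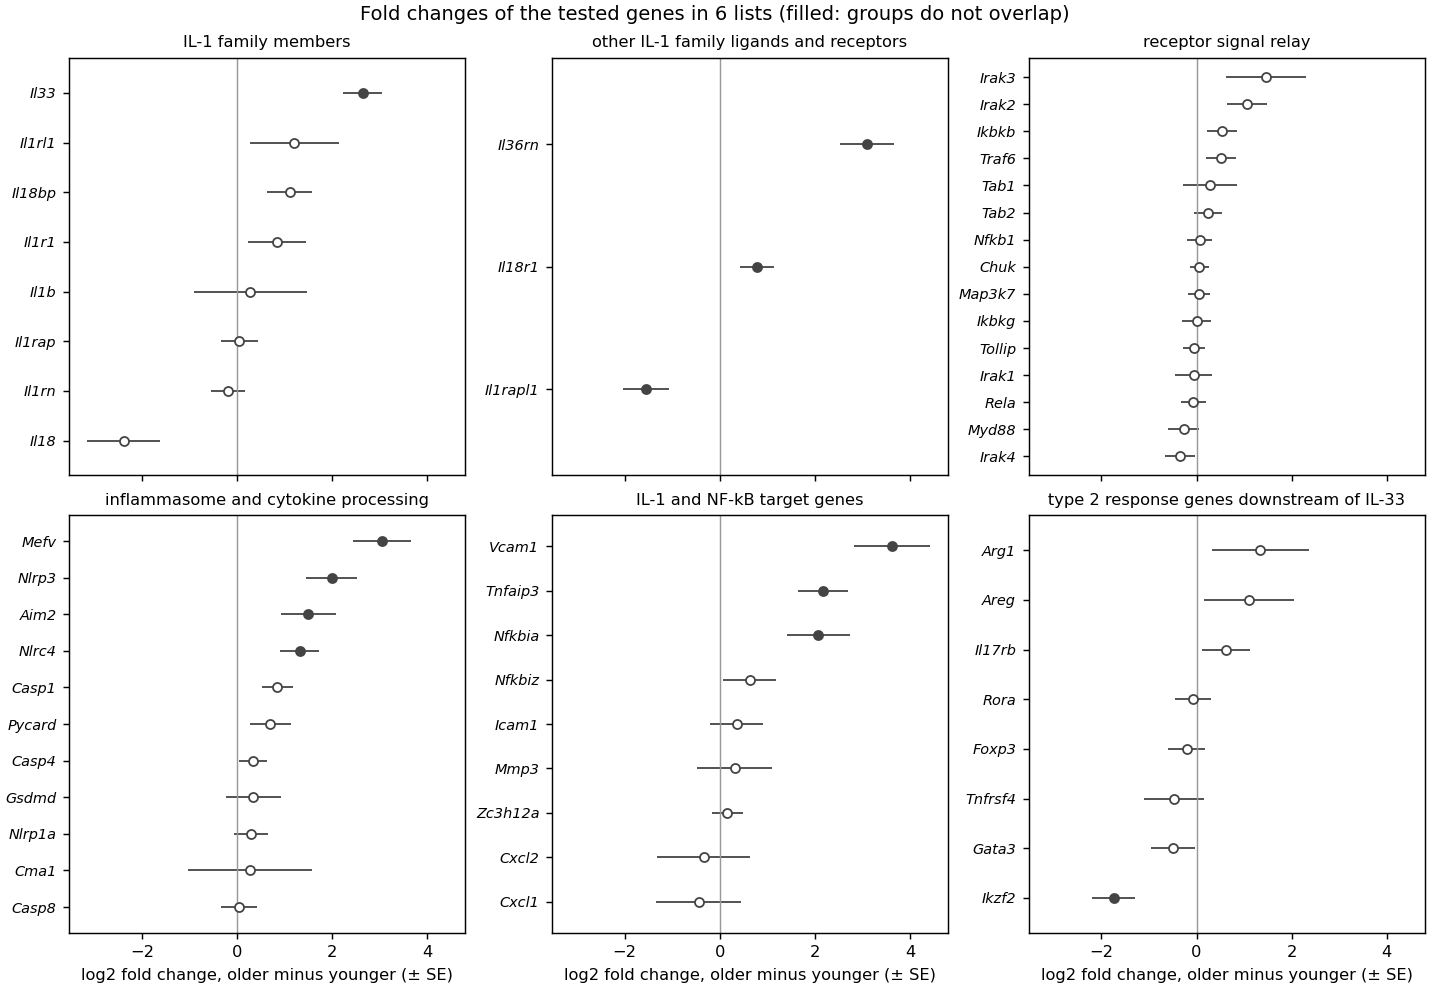
Log2 fold change (older minus younger) with its SE for the tested genes of the 6 lists, filled where the CPM of older and younger tumors do not overlap. None passes an adjusted p of 0.05 in edgeR. All 11 tested genes of the processing list lie above 0, though Mefv, Nlrp3 and Aim2 met the filter on low counts through the older tumors. The relay genes centre on 0.06.

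Cells that could carry Il33 or its receptor were followed by their markers. The listed markers Mcpt2 (mast cell), Krt19 (luminal), Krt14 (basal), Flg (keratinizing epithelium) and Cd4 (T cell) were not found by symbol, so the sums lack them. Endothelial markers summed to 427, 357 and 119 CPM in older and 266, 344 and 78.7 CPM in younger tumors, and fibroblast markers to 1155, 146 and 485 CPM and 888, 737 and 132 CPM. Both lists overlapped between the groups. Among older tumors, 107 was the lowest for fibroblast markers and 116 for endothelial markers, and Il33 was at 568 and 516 CPM in them. Basal and myoepithelial markers summed to 430, 2511 and 712 CPM in older and 2618, 1825 and 1810 CPM in younger tumors. Markers of keratinizing epithelium were low, at 4.48 to 24.5 CPM, and Ivl and Sprr1a were at 0 in every tumor. The sum of adipocyte markers was higher in every older tumor, at 281 to 695 CPM against 78.5 to 227 CPM. Lpl, at 519, 408 and 261 CPM in older tumors, made up most of it there. Adipoq, Plin1, Lep, Cidec and Fabp4 overlapped between the groups, and Adipoq was at most 1.6 CPM outside tumor 102. B and plasma cell markers summed to 4.55 to 22 CPM in older and 1.73 to 4.16 CPM in younger tumors. Jchain made up most of the sum in each older tumor, while Cd79a was lower in every older tumor and Ms4a1 and Cd79b were at 0. T cell markers were at 16.2 to 86.1 CPM in older and 4.52 to 8.66 CPM in younger tumors. Cd8a alone was at 74.6 CPM in tumor 107 and 10.3 CPM in tumor 102. Cd8a and Cd3e were higher in every older tumor, and Cd2 by little, while Cd3d and Cd3g overlapped between the groups at low counts. The part of these cells in the level of Il33 was not tested.

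Mast cells carry much ST2. The mast cell list summed to 261, 323 and 298 CPM in older and 76.9, 124 and 200 CPM in younger tumors. Kit, which mammary epithelium also expresses, made up 246.5, 172 and 295 CPM of this in older and 36.8, 116 and 51.1 CPM in younger tumors. It was thus more than the rest of the list in every older tumor and in tumor 158, but not in tumors 157 and 167. Without Kit the sum was 14.8, 150 and 3.40 CPM in older and 40.1, 7.6 and 149 CPM in younger tumors, so that mast cell transcripts such as the protease genes Cpa3 and Tpsb2 were high in tumors 107 and 167 and low in tumors 102 and 116. Il1rl1 was highest in tumor 102 (61.3 CPM), a tumor with few mast cell transcripts. Tumors 167 and 107, with many, came next at 20.7 and 12.5 CPM. In tumors 157, 116 and 158 Il1rl1 was at 10.8, 6.41 and 3.08 CPM. The part of mast cells in the level of Il1rl1 was not tested. Neutrophil markers, which belong to a further source of IL-1 beta, summed to at most 10.1 CPM in any tumor.

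**Figure D5:**
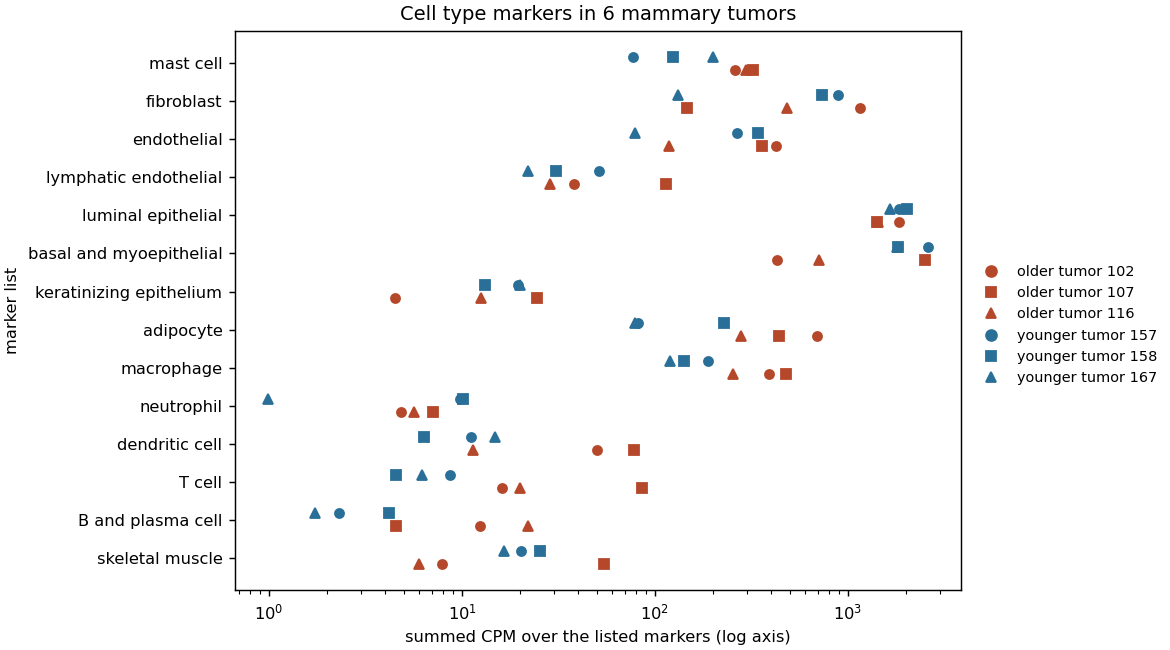
Summed CPM of the markers of 14 cell types in each tumor on a log axis, older tumors in red and younger in blue. Macrophage, adipocyte, T cell, mast cell, and B and plasma cell lists lie higher in every older tumor. This is through Lpl for the adipocyte list, Kit for the mast cell list and Jchain for the B and plasma cell list. Fibroblast and endothelial lists overlap.

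The genes most like Il33 over the 6 tumors, among 11876 genes with a mean of at least 5 CPM, were Orc2, Kbtbd3, AABR07051787.1, Zfp347 and Arhgap26, with Pearson correlations of log2 CPM between 0.985 and 0.989. Most of such a value comes from the step between the age groups, and 6 points cannot single out genes among so many. After the group means were taken out, the correlations were between 0.856 and 0.958. Zfp347, a zinc finger gene, was at 145, 110 and 106 CPM in older and 16.3, 28.2 and 34.8 CPM in younger tumors. Arhgap26 was at 61.3, 58.6 and 57.3 CPM in older and 15.6, 19.4 and 34.6 CPM in younger tumors. Orc2, a subunit of the origin recognition complex, was at 65.8, 63.9 and 61.9 CPM in older and 42.1, 47.9 and 49.9 CPM in younger tumors. It had the order of Il33 among the younger tumors but not among the older ones, where tumor 102 was the highest for Orc2 and the lowest for Il33.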

How the data were processed

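Bulk RNA-seq was measured in 6 rat mammary tumors. The authors depleted ribosomal RNA (the labels give polyA RNA), sequenced read pairs of 150 bases (the labels give 100), trimmed adapters, used STAR for alignment and Picard for marking duplicates, and deposited raw read counts per gene made with HTSeq 0.13.5 on build mRatBN7.2, per the submitters' processing notes. Strand setting, annotation and the use of marked reads are not given in the sources used here. Tumors were matched to columns by tumor ID, and 0 columns were unused.

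The 4367 rows without a gene name, 2.17% to 3.64% of the counts, were left out. Tests used edgeR 4.0.16 under R 4.3.3 (filterByExpr by age group, TMM, quasi-likelihood test, Benjamini-Hochberg adjustment, threshold 0.05). Standard errors were derived from the F statistic, and log2 CPM used a prior count of 2. With 3 tumors against 3, p-values set the group difference against the variation between single tumors, estimated with information shared across genes. Alternatives used DESeq2 1.42.0, limma 3.58.1 (voom), other scalings and filters, and each tumor left out. The statistics were tested on simulated data. The floor of 3 counts covers counting error only.

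The members, gene lists and alternatives were chosen with earlier results of these data known. Named are all members, the 3 genes with the smallest p of each other list, and the 5 genes most like Il33. Further genes of the lists were named after their values were seen. Promoter windows were matched by symbol and come from RefSeq, build GRCr8, which is not the build of the counts.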

Additional observations from a re-analysis of the deposited data

How the results depend on the processing

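No paired analysis was possible because the age groups share no replicate numbers.

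The count of genes passing the threshold was 0 with edgeR and stayed 0 when scaled by DESeq2's size factors or by library totals, in limma-voom, under both other filters, without the 10 genes with the most counts, with each tumor left out and with unnamed rows kept. Unadjusted, 1128 genes had a p under 0.05. The DESeq2 Wald test passed 326 genes (219 higher and 107 lower in older tumors), 2.48% of all genes tested. Among them were 2 of 8 tested members (Il33 and Il18) and 1 of 3 other family genes (Il36rn). So were 2 of 11 processing genes (Mefv and Nlrp3), 2 of 9 NF-kB targets (Vcam1 and Tnfaip3) and 1 of 8 type 2 genes (Ikzf2). The call of Il33 reuses the values by which the family was chosen, and the lists too were chosen with earlier results known, so nothing is read from these counts. The cause of this difference between tests was not tested.

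Of the 23 named genes tested, 15 kept their sign under every alternative run. With one tumor left out, the log2 fold change ranged from -0.28 to 1.92 for Il1rl1, from -0.97 to 1.92 for Il1b (-0.082 with limma-voom), from -0.48 to 0.022 for Il1rn, from -0.079 to 1.22 for Il1r1, from -0.30 to 0.29 for Il1rap, from -0.17 to 1.89 for Irak3, from -0.56 to 2.49 for Arg1 and from -0.022 to 0.95 for Il17rb. The log2 ratio of Il1rn to Il1r1 ranged from -1.30 to 0.0022. The log2 differences of summed markers ranged from -0.90 to 0.75 for fibroblasts, -0.21 to 1.0 for endothelium, -1.09 to 0.021 for keratinizing epithelium, -0.69 to 0.56 for neutrophils and -1.44 to 0.047 for skeletal muscle. The mast cell difference of 1.23 was -0.78 without Kit, a setting chosen after seeing the data. Depth limits Il1a, Il1r2 and the type 2 cytokines.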
